A study of Homo sapiens with 9 samples.

Results

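CYP1B1, CYP2B6, CYP2S1, CYP3A5 and CYP39A1, 5 genes of the cytochrome P450 family that act on drugs and bile acid precursors, were followed in sorafenib-resistant and sorafenib-sensitive Huh7 cells. They were picked by gene symbol with their log2 values in these arrays already known, so their levels and differences are given as a description without a test. The members took up 6 of the 11013 probe sets and 5 of the 9784 genes measured. They were 5 of the 12 P450 genes measured, out of 57 P450 genes listed.

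Huh7 is an established human hepatocellular carcinoma line, and sorafenib is a kinase inhibitor given for advanced liver cancer. Huh7-R-A7 is, by the sample titles, a resistant clone that was picked as a colony out of Huh7-R, Huh7-R is an uncloned resistant pool, and Huh7-S is the untreated parental line, with 3 arrays in each group. The descriptions of some Huh7-R-A7 arrays name other clones, so that the labels do not settle whether this group is a single clone. Both resistant groups had been pulsed with 10 µM sorafenib for 4 h every week during 6 weeks, had then been kept in the drug up to 6 µM, and were taken off the drug 5 to 7 days ahead of use. All groups are cultures of a single cell line, and both resistant groups come from the same selection, so they do not repeat each other independently. The labels do not say whether replicates came from separate thaws, so the spread between arrays may be partly technical.

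P450 enzymes are heme proteins that insert an oxygen atom into their substrates, with electrons passed on by cytochrome P450 reductase and, for some of them, cytochrome b5. In the liver they oxidise drugs, carcinogens and steroids, and other members convert cholesterol and oxysterols to bile acids. Many are switched on by ligand-activated factors. The aryl hydrocarbon receptor (AHR) with its partner ARNT drives CYP1 genes, and the nuclear receptors CAR (NR1I3) and PXR (NR1I2), which pair with RXRA, drive CYP2B and CYP3A genes.

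The stretch of 100 bases before the start site is shown for the 4 members with an entry in RefSeq's promoter table (build GRCh38.p14), since the members differ there in base composition and in the motif ATAAA. The windows are chr19:40991182-40991281 for CYP2B6 and chr19:41193119-41193218 for CYP2S1, both on the + strand, and chr7:99679997-99680096 for CYP3A5 and chr6:46652819-46652918 for CYP39A1, both on the - strand. Capitals mark each CpG (CG) and, in the 50 bases next to the start site, ATAAA.
CYP2B6: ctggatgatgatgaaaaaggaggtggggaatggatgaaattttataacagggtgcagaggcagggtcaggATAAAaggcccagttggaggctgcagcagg
CYP2S1: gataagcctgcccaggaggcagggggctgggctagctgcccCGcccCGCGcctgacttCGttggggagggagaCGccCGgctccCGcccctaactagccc
CYP3A5: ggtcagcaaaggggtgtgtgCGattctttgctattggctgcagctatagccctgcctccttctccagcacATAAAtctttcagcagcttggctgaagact
CYP39A1: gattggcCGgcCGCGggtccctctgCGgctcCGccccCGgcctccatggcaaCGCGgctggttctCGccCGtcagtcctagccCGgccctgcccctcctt

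CYP2B6 and CYP3A5 had few CpGs and CYP2S1 and CYP39A1 many. In the 250 bases before the start site, CYP2B6 held 0 CpGs and CYP3A5 held 2, whereas CYP2S1 held 23 and CYP39A1 held 21, against a median of 11 over 27305 promoters. The GC content of these windows was 48.0% for CYP2B6, 47.6% for CYP3A5, 69.6% for CYP2S1 and 67.6% for CYP39A1. ATAAA, searched on both strands in the 50 bases next to the start site, lay in CYP2B6 and CYP3A5, and in 9.8% of all promoters. GCGTG, the core letters of the AHR response element, was found on neither strand in the 250 bases of any of the 4, and 31.9% of promoters held it there. CYP1B1 had no entry in the promoter table, so this search says nothing of it. GGGCGG, the core of the GC box, was found 3 times in CYP2S1 and 1 time in CYP39A1, and in 42.3% of promoters. A match is only a match of letters, and the windows leave out distant enhancers.

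Signal values are on the log2 scale, normalized by the authors with robust multi-array averaging, and a level below log2 6 was taken as noise, as in the methods of the study. Where a group mean lay below that limit, the fold is a lower bound, with arrays under 6 set to 6. None of the probe sets lay below the limit on more than 85% of arrays, so a gene that was low in every group would not have been in the table. The array of Huh7-S replicate 1 stood further from the others of its group (root mean square difference 0.48 over all genes) than any other array (0.17 to 0.29).

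The liver identity of the cells was checked with 13 hepatocyte markers, of which 12 were measured. Their mean log2 signal per array was 11.32 to 12.22 in Huh7-R-A7, 12.06 to 12.53 in Huh7-R and 12.21 to 13.51 in Huh7-S, and 0 of 12 rose and 5 fell in Huh7-R-A7, while 2 rose and 6 fell in Huh7-R (medians -0.97 and -1.12, against -0.04 and -0.03 over all genes). Over all genes 18.0% rose and 24.6% fell in Huh7-R-A7, and 19.0% rose and 26.2% fell in Huh7-R. This surplus of lower genes turned with the scaling, with 2341 genes higher and 2091 lower in Huh7-R-A7 and 2423 and 2197 in Huh7-R after array median centring, and 2208 and 2172, and 2338 and 2271, after cyclic loess. ALB, which encodes albumin, was 14.66, 15.73 and 15.82 in Huh7-R-A7, 14.87, 15.16 and 15.16 in Huh7-R, and 17.28, 16.54 and 16.44 in Huh7-S. APOA1 and SERPINA1 were below the noise limit on all resistant arrays. FGB, a fibrinogen chain, was 13.76, 14.50 and 14.55 in Huh7-R-A7, 14.63, 15.16 and 15.16 in Huh7-R, and 14.16, 11.95 and 11.82 in Huh7-S, with differences of 1.63 (limma adjusted p = 0.058) in the clone and 2.34 (limma adjusted p = 0.014, and 0.051 without Huh7-S replicate 2) in the pool. HP, haptoglobin, differed by 1.41 (limma adjusted p = 0.22) in the clone and by 3.22 (limma adjusted p = 0.017) in the pool, and the pool value was lost without replicate 2 or 3 of Huh7-R or of Huh7-S (limma adjusted p = 0.051 to 0.058). Without Huh7-S replicate 1 both passed in the clone, FGB with 2.38 (limma adjusted p = 0.00052) and HP with 2.44 (limma adjusted p = 0.0075). At an unadjusted limma p below 0.05, 2 of the 12 were higher and 5 lower in the clone. Of 16 markers of fibroblasts, endothelium, bile duct and blood, 3 were measured (LUM, KRT19 and EPCAM), with a mean of 9.70 to 9.74 in Huh7-R-A7, 9.58 to 9.89 in Huh7-R and 7.06 to 8.40 in Huh7-S. Of these 3, 1 rose in the clone and 2 in the pool, and 0 fell. LUM, a proteoglycan and the only fibroblast marker measured, rose by 3.58 (limma adjusted p = 3.9e-06) in the clone. EPCAM, a bile duct marker, had a pool difference of 1.57 (limma adjusted p = 0.048). That call was lost when any of the Huh7-R arrays was left out (limma adjusted p = 0.062 to 0.13). The part of these markers in the P450 values was not tested, and in RNA of whole cultures fewer cells of a type and less RNA per cell cannot be told apart.

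CYP1B1, on chromosome 2, oxidises polycyclic aromatic hydrocarbons and hydroxylates estradiol. Its log2 signal was 11.51, 11.25 and 10.92 on the Huh7-R-A7 arrays, 10.61, 10.37 and 10.34 on the Huh7-R arrays, and 5.18, 5.10 and 4.71 on the Huh7-S arrays. All resistant arrays lay far above the noise limit, all Huh7-S arrays lay below it, and the groups did not overlap. The difference in log2 signal was 6.23 (SE 0.17) for Huh7-R-A7 vs. Huh7-S, at least 37.4-fold higher, and 5.45 (SE 0.17) for Huh7-R vs. Huh7-S, at least 21.7-fold higher. CYP1B1 had 2 probe sets, and both gave the same order of the groups.

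The CYP1B1 probe set TC02001749.hg.1 read 12.26, 12.05 and 11.60 in Huh7-R-A7, 11.42, 11.15 and 11.14 in Huh7-R, and 4.92, 4.68 and 4.21 in Huh7-S. The probe set TC02001750.hg.1 read 10.75, 10.45 and 10.24 in Huh7-R-A7, 9.80, 9.60 and 9.55 in Huh7-R, and 5.43, 5.52 and 5.22 in Huh7-S. On these probe sets, in the order named, the signal was at least 62.7-fold and at least 22.3-fold higher for Huh7-R-A7 vs. Huh7-S, and at least 37.7-fold and at least 12.5-fold higher for Huh7-R vs. Huh7-S. Since Huh7-S lay below the noise limit on both, these are bounds, and the sizes on the 2 probe sets cannot be ordered. The clone lay above the pool by nearly the same amount on both, by 0.73 and 0.83.

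CYP2B6, on chromosome 19, oxidises cyclophosphamide, efavirenz and bupropion and is the textbook target of CAR. Its log2 signal was 7.99, 8.90 and 8.84 in Huh7-R-A7, 6.99 on each of the Huh7-R arrays, and 5.64, 5.80 and 5.68 in Huh7-S. The groups formed a ladder without overlap, with the clone highest and Huh7-S below the noise limit. The difference was 2.87 (SE 0.22), at least 5.96-fold, for Huh7-R-A7 vs. Huh7-S and 1.28 (SE 0.22), at least 1.98-fold, for Huh7-R vs. Huh7-S. The 3 Huh7-R values were exactly equal in the deposited table, so their SD of 0 does not measure the spread of these cultures. Probe sets of CYP2B6 can pick up its near-identical pseudogene, and this was not tested.

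CYP2S1 is a P450 of epithelia outside the liver and lies on chromosome 19 with CYP2B6, with 8 annotated genes between them. The CYP2S1 arrays read 8.43, 8.75 and 8.75 in Huh7-R-A7, 8.94, 8.89 and 8.65 in Huh7-R, and 5.78, 5.94 and 5.97 in Huh7-S. The clone and the pool overlapped, and both lay above all Huh7-S arrays, which were below the noise limit. The difference was 2.75 (SE 0.11), at least 6.26-fold, for Huh7-R-A7 vs. Huh7-S and 2.93 (SE 0.11), at least 7.09-fold, for Huh7-R vs. Huh7-S.

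CYP3A5, on chromosome 7, belongs to the subfamily that oxidises a large share of drugs in use, sorafenib among the substrates of its relative CYP3A4. Its log2 signal was 6.33, 7.07 and 6.90 in Huh7-R-A7, 6.13, 6.41 and 6.42 in Huh7-R, and 4.83, 5.86 and 5.61 in Huh7-S. The resistant arrays all lay just above the noise limit and the Huh7-S arrays below it, and the gap between the lowest Huh7-R array and the highest Huh7-S array was small. The difference was 1.33 (SE 0.29), at least 1.70-fold, for Huh7-R-A7 vs. Huh7-S and 0.88 (SE 0.29), at least 1.25-fold, for Huh7-R vs. Huh7-S. Huh7-S replicate 1 was 0.91 below the mean of the other Huh7-S arrays. Without it the differences were 1.03 and 0.58, so the pool value shrank by more than 1.5 times. The CYP3A genes are near-identical in sequence, and signal from other CYP3A transcripts was not tested.

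CYP39A1, on chromosome 6, hydroxylates oxysterols on a minor route to bile acids in the liver, and it alone of the members was lower in the resistant cells. Its log2 signal was 5.16, 5.54 and 5.16 in Huh7-R-A7, 5.08, 5.15 and 5.44 in Huh7-R, and 7.29, 6.40 and 6.14 in Huh7-S. All resistant arrays were below the noise limit and all Huh7-S arrays above it. The difference was -1.32 (SE 0.28) for Huh7-R-A7 vs. Huh7-S and -1.38 (SE 0.28) for Huh7-R vs. Huh7-S, at least 1.52-fold lower in both resistant groups. Huh7-S replicate 1 was the highest array, 1.02 above the mean of the other Huh7-S arrays, and without it the differences were -0.98 and -1.04. The bound of 1.52-fold includes this array, and the other Huh7-S arrays, at 6.40 and 6.14, lay just above the noise limit.

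**Figure D1:**
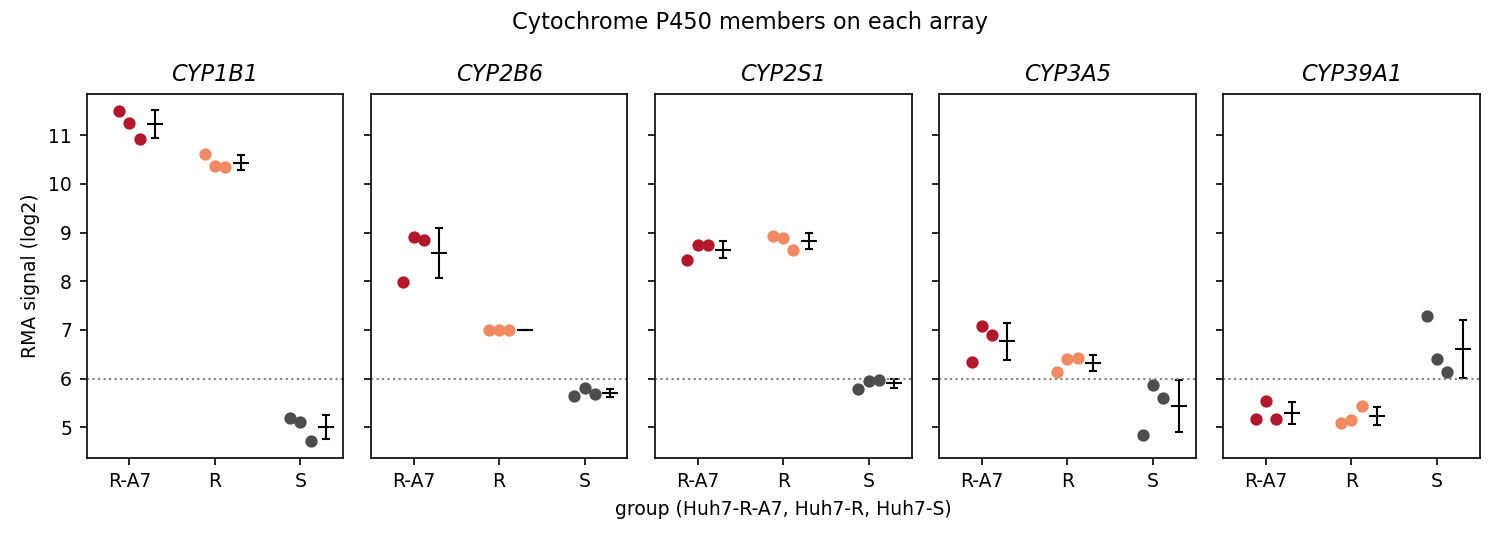
RMA signal (log2, vertical axis) of the 5 members on each array of Huh7-R-A7, Huh7-R and Huh7-S, with the group mean and SD beside the points (n = 3 each) and the noise limit of log2 6 as a dotted line. CYP1B1, CYP2B6, CYP2S1 and CYP3A5 lie above the line on all resistant arrays and below it on all Huh7-S arrays, and CYP39A1 shows the opposite.

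Against Huh7-S, 4 members were higher and 1 was lower in Huh7-R-A7 with no overlap of arrays, where 22.2% of all genes were higher and 30.2% lower without overlap. The same counts held for Huh7-R vs. Huh7-S, where 22.9% of genes were higher and 30.1% lower. The members were chosen with these values known, so nothing is read from their share, and both comparisons use the same 3 Huh7-S arrays. Of the 15 member values per group, 3 in Huh7-R-A7, 3 in Huh7-R and 12 in Huh7-S were below the noise limit, as the plot of signal by array shows.

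Within the resistant cells, CYP1B1 and CYP2B6 separated the clone from the pool. CYP1B1 was 0.78 higher (SE 0.17, 1.72-fold) and CYP2B6 was 1.59 higher (SE 0.22, 3.01-fold) in Huh7-R-A7 than in Huh7-R, both without overlap, where 15.0% of genes were higher in the clone without overlap. CYP3A5 was 0.45 higher, CYP2S1 0.18 lower (difference -0.18) and CYP39A1 0.06 higher in the clone, and the arrays of the 2 groups overlapped for each of these 3 members. For CYP39A1 both groups were below the noise limit, so that no fold is given.

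Among the other drug-metabolising P450 genes, CYP2J2 was lower in the resistant cells. It was the 1 gene measured of 18 listed, and it also epoxidises arachidonic acid. CYP2J2 read 5.95, 5.85 and 5.76 in Huh7-R-A7, 6.26, 6.05 and 5.99 in Huh7-R, and 7.34, 7.19 and 7.01 in Huh7-S. CYP2J2 fell by 1.32 (SE 0.10, at least 2.26-fold, limma adjusted p = 5e-05) in Huh7-R-A7 and by 1.08 (SE 0.10, 2.11-fold, limma adjusted p = 0.00015) in Huh7-R, both vs. Huh7-S.

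Of 34 P450 genes that act on sterols, vitamins, fatty acids and prostanoids, 6 were measured, and 0 rose and 3 fell in Huh7-R-A7 vs. Huh7-S, while 1 rose and 2 fell in Huh7-R vs. Huh7-S. The median difference was -0.15 and -0.18, against -0.04 and -0.03 over all genes. The 3 that fell became 1 when any of the Huh7-R-A7 arrays was left out. At an unadjusted limma p below 0.05, 0 of the 6 were higher and 3 lower in the clone. These counts stand beside the 18.0% that rose and 24.6% that fell in Huh7-R-A7, and the 19.0% and 26.2% in Huh7-R, over all genes.

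CYP4V2, a fatty acid hydroxylase, fell by 0.36 (limma adjusted p = 0.0013) in the clone and by 0.43 (limma adjusted p = 0.00055) in the pool. CYP20A1, an orphan P450, had differences of -0.47 (limma adjusted p = 0.024) in the clone and -0.65 (limma adjusted p = 0.0057) in the pool. The clone value did not pass when any of the 3 Huh7-R-A7 arrays was left out (limma adjusted p = 0.056 to 0.076) and was -0.30 without Huh7-S replicate 1. CYP51A1, the lanosterol demethylase of cholesterol synthesis, had a difference of -0.26 in the clone (limma adjusted p = 0.045), which was lost with any array but Huh7-S replicate 3 left out (limma adjusted p = 0.053 to 0.12), and -0.24 in the pool (limma adjusted p = 0.053). PTGIS, prostacyclin synthase, rose by 1.36 in the pool (limma adjusted p = 0.0078), and its difference in the clone was 0.49 (limma adjusted p = 0.23). CYP2R1 and CYP26B1, which hydroxylate vitamin D and retinoic acid, did not pass in either comparison, with differences of -0.04 and 0.63 in the clone and of 0.08 and -0.12 in the pool.

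**Figure D2:**
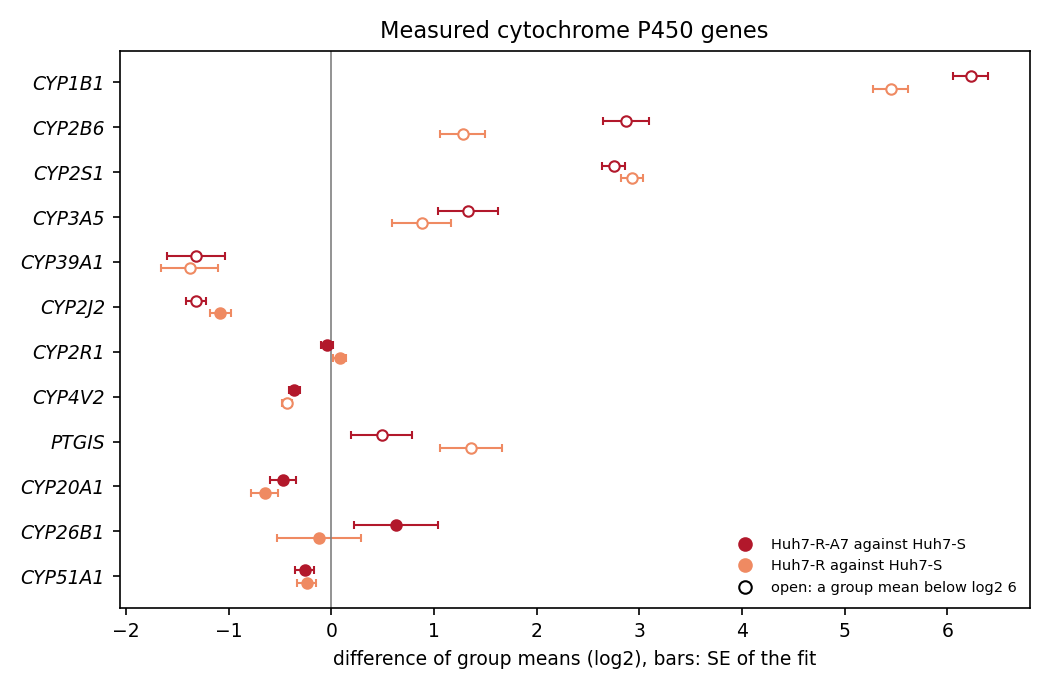
Difference of group means (log2, horizontal axis; bars are the SE of the fit) for the 12 measured P450 genes, Huh7-R-A7 vs. Huh7-S in red and Huh7-R vs. Huh7-S in orange, open points where a group mean lies below log2 6. CYP1B1 stands furthest to the right with 6.23 and 5.45, and CYP39A1 and CYP2J2 lie furthest to the left.

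AHR, the receptor that drives CYP1B1, was higher in all resistant arrays than in all Huh7-S arrays. Its arrays read 13.49, 13.44 and 13.37 in Huh7-R-A7, 13.60, 13.39 and 13.55 in Huh7-R, and 12.06, 12.07 and 12.04 in Huh7-S. AHR rose by 1.38 (SE 0.07, 2.60-fold, limma adjusted p = 5.5e-06) in Huh7-R-A7 and by 1.45 (SE 0.07, 2.74-fold, limma adjusted p = 4.5e-06) in Huh7-R, both vs. Huh7-S. Between the clone and the pool, where CYP1B1 differed by 0.78, AHR differed by -0.08 (limma adjusted p = 0.58). A link between CYP1B1 and the signal of AHR was not tested. Its partner ARNT did not pass, with 0.05 (limma adjusted p = 0.52) in the clone and 0.13 (limma adjusted p = 0.12) in the pool, though the pool value passed after array median centring (0.20, limma adjusted p = 0.015).

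The measured genes of the AHR pathway moved in both directions. Of 16 listed, 7 were measured, and 2 rose and 4 fell in each comparison with Huh7-S (medians -0.40 for Huh7-R-A7 and -0.32 for Huh7-R). Among all genes 18.0% rose and 24.6% fell in Huh7-R-A7, and 19.0% rose and 26.2% fell in Huh7-R (medians -0.04 and -0.03). TIPARP, an AHR target that represses the receptor, rose by 0.90 (limma adjusted p = 7.1e-05) in the clone and by 0.87 (limma adjusted p = 9e-05) in the pool. NQO1, a quinone reductase induced by both AHR and NRF2, fell by 1.27 (limma adjusted p = 0.00041) in the clone and by 0.74 (limma adjusted p = 0.0056) in the pool. NFE2L2, which encodes NRF2, fell by 1.30 (limma adjusted p = 1.1e-05) in the clone and by 0.66 (limma adjusted p = 0.00029) in the pool, and it was 0.64 lower in the clone than in the pool (difference -0.64, limma adjusted p = 0.0024). Its Huh7-R values were exactly equal, at 11.26 on each array, so the spread fitted to NFE2L2 may be too small. HSP90AB1 and PTGES3, chaperones of the unbound receptor, fell as well, with differences of -0.46 (limma adjusted p = 0.0054) and -0.40 (limma adjusted p = 0.0048) in the clone.

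Among nuclear receptors and hepatocyte transcription factors, a list that holds regulators of CYP2B6 and CYP3A5 in liver, genes moved in both directions. Of 32 listed, 14 were measured, and 2 rose and 9 fell in Huh7-R-A7 (median -0.69), while 4 rose and 6 fell in Huh7-R (median -0.49), where over all genes 18.0% rose and 24.6% fell in Huh7-R-A7 and 19.0% rose and 26.2% fell in Huh7-R (medians -0.04 and -0.03). Among genes with 9 different values, where fewer of the list were tested, 4 fell in Huh7-R-A7, and 2 rose and 3 fell in Huh7-R. The genes that rose became 1 in Huh7-R-A7 without replicate 2 or 3 of the clone or Huh7-S replicate 2, and 2 in Huh7-R without replicate 2 or 3 of the pool or Huh7-S replicate 3. NR1I3, NR1I2 and HNF4A were not analysed here. RXRA, the partner of CAR and PXR, was 5.62, 5.72 and 5.70 in Huh7-R-A7, 5.79, 5.88 and 5.88 in Huh7-R, and 6.59, 6.39 and 6.18 in Huh7-S. It fell by 0.71 (limma adjusted p = 0.00084) in the clone and by 0.54 (limma adjusted p = 0.0032) in the pool, and lay below the noise limit in both. CYP2B6 and CYP3A5 were higher in both groups, and a link to RXRA was not tested.

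ONECUT1 (HNF6), a liver factor that activates bile acid and P450 genes, fell by 3.19 (SE 0.28, limma adjusted p = 7.9e-05) in the clone, the largest decrease of the list, and fell by 2.31 (SE 0.28, limma adjusted p = 0.0004) in the pool. CEBPA, a hepatocyte differentiation factor, fell by 1.14 (limma adjusted p = 0.0074) in the clone. Its pool value of -0.86 (limma adjusted p = 0.025) did not pass when any of the 3 Huh7-R arrays or Huh7-S replicate 2 was left out (limma adjusted p = 0.056 to 0.067). PROX1, a repressor of bile acid synthesis genes, had differences of -1.20 in the clone (limma adjusted p = 0.02, lost without Huh7-S replicate 2 or 3) and -0.85 in the pool (limma adjusted p = 0.066). NCOA2, a coactivator of nuclear receptors, fell by 1.23 (limma adjusted p = 0.00014) and 0.76 (limma adjusted p = 0.0017), and NR2F1, an orphan receptor, by 0.87 (limma adjusted p = 0.00033) and 0.76 (limma adjusted p = 0.00066), in the clone and the pool. NR3C1, the glucocorticoid receptor, rose by 0.37 (limma adjusted p = 0.0026) and 0.38 (limma adjusted p = 0.0022).

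**Figure D3:**
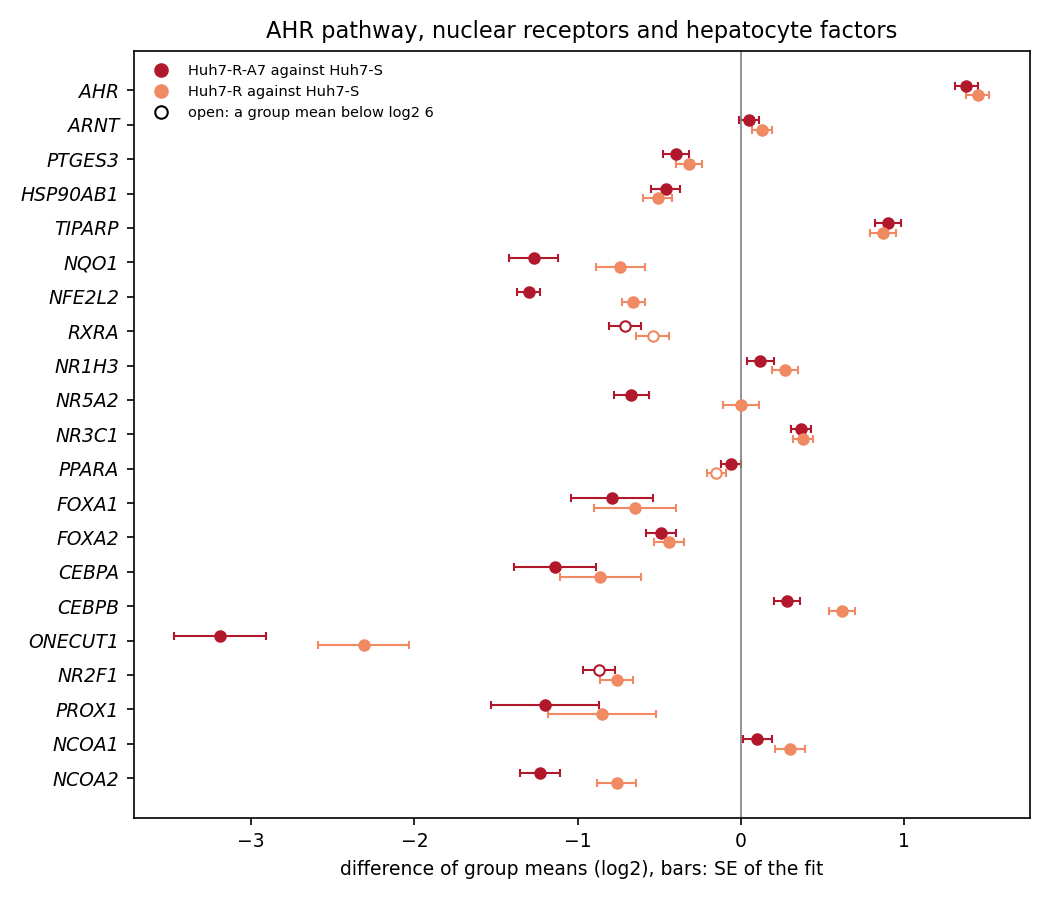
Difference of group means (log2, horizontal axis; bars are the SE of the fit) for the measured genes of the AHR pathway and for nuclear receptors and hepatocyte factors, Huh7-R-A7 vs. Huh7-S in red and Huh7-R vs. Huh7-S in orange, open points where a group mean lies below log2 6. AHR and TIPARP lie to the right of 0, and ONECUT1 lies furthest to the left at -3.19 and -2.31.

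CYP39A1 was read beside the other measured genes of bile acid synthesis, transport and feedback. Of 27 listed, 9 were measured, and 4 rose and 4 fell in Huh7-R-A7 (median 0.06), while 2 rose and 5 fell in Huh7-R (median -0.36). The shares over all genes were 18.0% higher and 24.6% lower in Huh7-R-A7, and 19.0% and 26.2% in Huh7-R (medians -0.04 and -0.03). The receptor pair that carries the FGF19 feedback signal fell in both groups. KLB, the co-receptor, fell by 2.52 (limma adjusted p = 6.1e-05) in the clone and by 1.68 (limma adjusted p = 0.00047) in the pool, and FGFR4 fell by 2.21 (limma adjusted p = 3.2e-06) in the clone and by 1.51 (limma adjusted p = 1.8e-05) in the pool. SLC27A2, a very long chain acyl-CoA synthetase, rose by 2.09 (limma adjusted p = 0.00012) in the clone and by 1.42 (limma adjusted p = 0.00086) in the pool. AKR1C4, a reductase of bile acid intermediates, was 1.20 higher in the clone (limma adjusted p = 0.024), and this was lost without Huh7-R-A7 replicate 2 or 3 or Huh7-S replicate 2 or 3 (limma adjusted p = 0.063 to 0.082). The 4 genes that rose in the clone became 2 without replicate 2 or 3 of the clone or of Huh7-S, and the 2 that rose in the pool became 4 after array median centring.

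On chromosome 19, CYP2S1 lies directly beside AXL, a receptor tyrosine kinase, with 0 annotated genes between them in RefSeq order. AXL read 10.73, 9.99 and 9.82 in Huh7-R-A7, 10.66, 9.89 and 9.82 in Huh7-R, and 6.50, 5.82 and 6.22 in Huh7-S. It rose by 4.00 (SE 0.32, limma adjusted p = 5e-05) in the clone and by 3.94 (SE 0.32, limma adjusted p = 5.8e-05) in the pool, beside 2.75 and 2.93 for CYP2S1. Between the clone and the pool AXL differed by 0.06 (limma adjusted p = 0.95) and CYP2S1 by -0.18. TGFB1, with 6 genes between it and CYP2S1, rose by 2.40 (SE 0.55, limma adjusted p = 0.009) and 2.62 (SE 0.55, limma adjusted p = 0.0058), with Huh7-S replicate 1 at 10.27 and the other Huh7-S arrays at 8.26 and 7.94. CCDC97, which lies between them, had -0.10 (limma adjusted p = 0.49) and -0.03 (limma adjusted p = 0.82), so the measured genes around CYP2S1 were not all higher. Of the 7 measured neighbours of CYP2S1 that are no members, 5 rose and 1 fell in each resistant group (medians 0.50 and 0.62). Around CYP2B6, whose neighbours overlap with these, 4 of 7 rose and 1 fell in the clone, and 5 rose and 1 fell in the pool.

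Around CYP1B1, PRKD3, QPCT and CDC42EP3 on the same flank, with 17, 13 and 8 genes between, rose in both resistant groups. SRSF7 on the other flank, with 15 genes between, fell, with -0.46 (limma adjusted p = 0.0029) in the clone and -0.54 (limma adjusted p = 0.0013) in the pool. QPCT, glutaminyl cyclase, rose by 2.63 (SE 0.09, limma adjusted p = 9.1e-07) in the clone and by 2.22 (SE 0.09, limma adjusted p = 2.1e-06) in the pool, and CDC42EP3 by 2.47 (SE 0.25, limma adjusted p = 0.00016) and 1.75 (SE 0.25, limma adjusted p = 0.00092). RMDN2-AS1, the measured gene nearest to CYP1B1 with 1 gene between, was at 0.02 (limma adjusted p = 0.91) and 0.07 (limma adjusted p = 0.69). Around CYP39A1, MEP1A, a meprin protease with 5 genes between, fell by 3.38 (SE 0.17, limma adjusted p = 6.4e-06) and 3.05 (SE 0.17, limma adjusted p = 1e-05) to levels below the noise limit. Among all 8 measured neighbours of CYP39A1, 1 rose and 2 fell in each comparison with Huh7-S, and the rest did not pass. Of the 8 measured neighbours of CYP3A5, 3 fell in the clone and 2 in the pool and the rest did not pass, the largest difference being -0.40 for COPS6 in the pool. Over all 32 neighbours that are no members, 10 rose and 7 fell in Huh7-R-A7 (median 0.06), and 10 rose and 6 fell in Huh7-R (median 0.04). The shares over all genes were 18.0% higher and 24.6% lower in Huh7-R-A7, and 19.0% and 26.2% in Huh7-R.

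**Figure D4:**
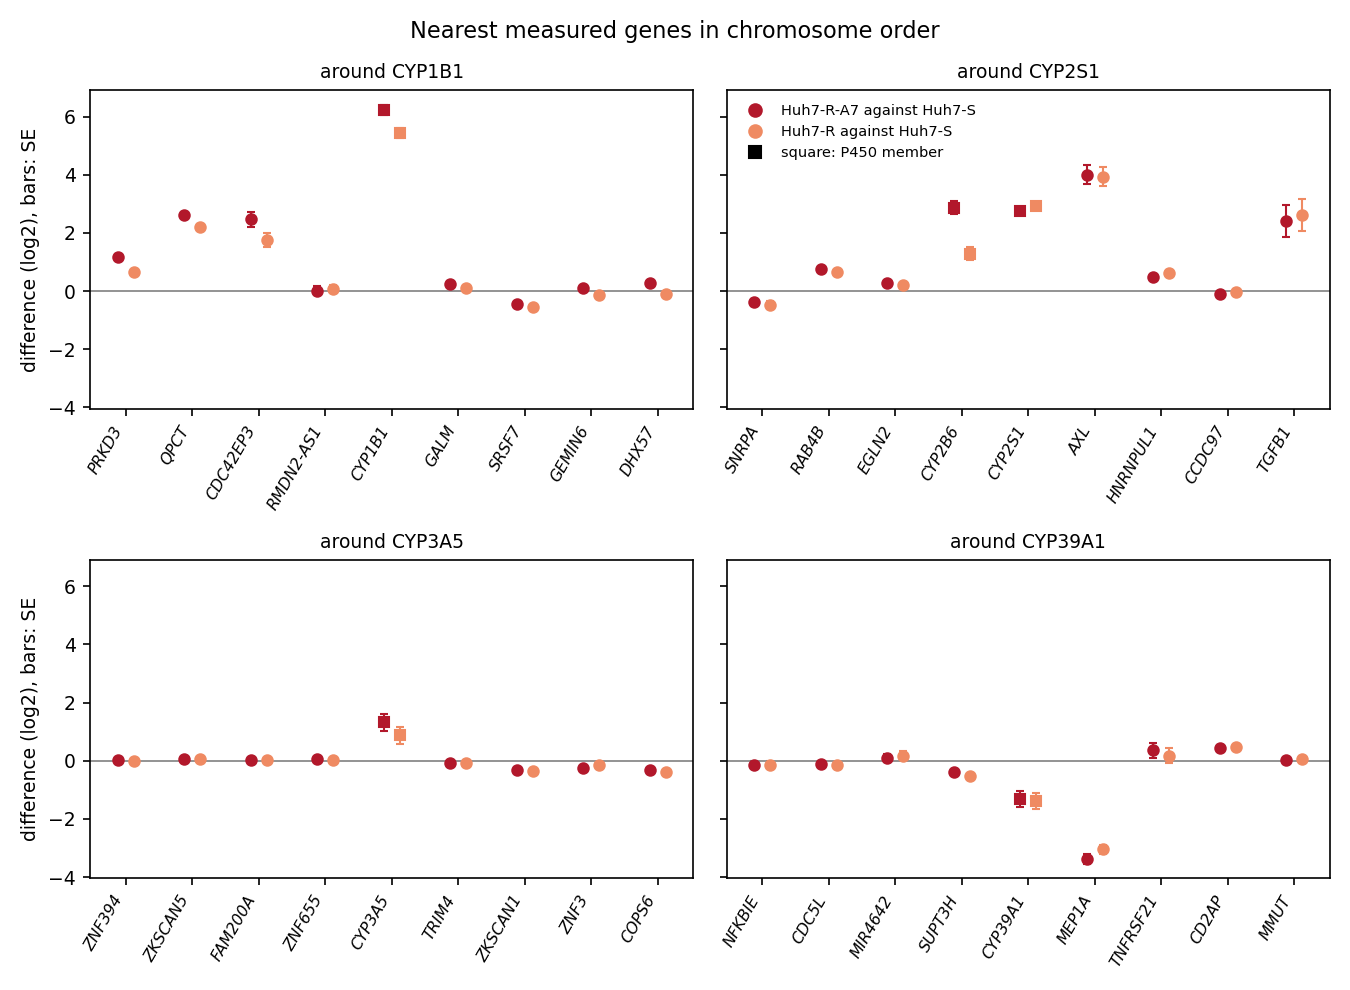
Difference of group means (log2, vertical axis, with bars for the SE of the fit) around CYP1B1, CYP2S1, CYP3A5 and CYP39A1. Each panel shows the nearest measured genes in chromosome order. Squares are members, with CYP2B6 in the panel of CYP2S1. Huh7-R-A7 vs. Huh7-S is in red and Huh7-R vs. Huh7-S in orange. AXL beside CYP2S1, QPCT and CDC42EP3 near CYP1B1, and MEP1A near CYP39A1 share the sign of the member, and the genes around CYP3A5 lie near 0. SRSF7 near CYP1B1, SNRPA near CYP2S1 and CD2AP near CYP39A1 passed with the opposite sign.

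The genes whose profile over the 9 arrays was most like that of a member were found by the root mean square difference of log2 values centred on their mean. For CYP1B1 they were RAB27B (0.37), COL12A1 (0.43) and CD109 (0.44), against a median of 2.79 over all genes. For CYP2B6 they were EMP1 (0.26), AOX1 (0.32) and IL1A (0.33), against a median of 1.22, and for CYP2S1 they were PDGFD (0.16), CDA (0.24) and IFNGR1 (0.26), against 1.37. CYP3A5 lay nearest to GUCY1A2 (0.17), ADAMTS9 (0.19) and SVIL (0.21), with a median of 0.67. CYP39A1 lay nearest to UNG, ZSWIM5 and VSNL1 (each 0.19), with a median of 0.71. These distances describe the shape of the profile over 3 groups and carry no test.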

How the data were processed

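Total RNA of 9 cultures was hybridised to 9 Affymetrix Human Transcriptome Arrays. According to the submitters' processing notes, the authors normalized the arrays by RMA in Affymetrix Expression Console, and the deposited values are log2 signals. Neither its version nor the genome build is given in the sources used here. The table held 11013 probe sets, of which 9851 had 1 gene symbol, 624 several and 538 none here, and array medians lay between 8.22 and 8.38. Symbols of 77 were updated, and probe sets of 67 genes were averaged, which gave 9784 genes. Groups came from sample titles. For clone arrays 2 and 3 the description names another clone.

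Genes other than the members were tested with limma 3.58.1 in R 4.3.3 (lmFit, eBayes with trend, group only, all 9 arrays), with two-sided p-values, Benjamini-Hochberg adjustment over 9784 genes and a threshold of 0.05. Genes rose or fell where they passed. The fit was also run on simulated data with independent noise. That run held no equal values and no pairing of arrays, so it does not cover these features of the data. The members and gene lists were chosen with earlier results of these data known. Named were the members, other measured P450 genes, AHR, ARNT and named regulators, up to 4 genes of each list with the largest difference among those that passed, and the 3 nearest profiles. Of the 4 nearest measured genes on each side of a member only some were named, while the neighbour counts cover all of them. COPS6 and CCDC97 are such neighbours. In 59.9% of genes at least 2 arrays had exactly equal values, and the spread fitted to them may be too small. Across genes, same-numbered clone and pool arrays deviated together from their group means (r = 0.60, 0.49 and 0.42), so that the numbers pair these groups by the data, while the labels name no shared day. Those of the clone and Huh7-S (-0.21, -0.09 and -0.07) and of the pool and Huh7-S (-0.11, -0.09 and 0.10) did not. Alternatives were 2 other scalings, no trend, another probe set rule, only the arrays compared, 2 filters, a replicate block, the limits in the methods of the study and each array left out. Tables and plots were made in Python 3.11.15 (pandas 2.3.3, matplotlib 3.10.9).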

Additional observations from a re-analysis of the deposited data

Results flagged for a closer look

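ABCC2, which exports conjugated drugs and bile salts into bile, moved in opposite directions in the 2 resistant groups, and the difference between them passed its own test. Its log2 signal was 12.08, 12.29 and 12.26 in Huh7-R-A7, 9.96, 10.13 and 10.07 in Huh7-R, and 10.96, 11.37 and 11.32 in Huh7-S. It rose by 0.99 in Huh7-R-A7 and fell by 1.16 in Huh7-R, both vs. Huh7-S, and it was 2.16 higher in the clone than in the pool (limma adjusted p = 8.1e-05).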

How the results depend on the processing

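No member's difference from Huh7-S changed sign under any alternative run, and CYP39A1 did between the clone and the pool, both below the noise limit. For CYP1B1 the probe set with the highest mean gave 7.37 for Huh7-R-A7 vs. Huh7-S and 6.63 for Huh7-R vs. Huh7-S, both against Huh7-S means below the noise limit. CYP39A1 gave no value once genes averaging below log2 6 were left out, nor CYP2B6 among genes with 9 different values. In Huh7-R-A7 vs. Huh7-S, 1763 genes rose and 2411 fell, 1063 and 1479 among genes with 9 different values, where fewer genes were tested, and 183 and 93 under the limits in the methods of the study. The surplus of lower genes turned after array median centring (2341 higher and 2091 lower) and cyclic loess (2208 and 2172). In Huh7-R vs. Huh7-S, 1855 rose and 2561 fell, and these were 1116 and 1536, and 183 and 68, while array median centring gave 2423 and 2197 and cyclic loess 2338 and 2271. In Huh7-R-A7 vs. Huh7-R, 402 rose and 442 fell, and these were 162 and 222, and 8 and 7.

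With each array left out in turn, the counts were 1466 to 1979 and 1910 to 2481 for Huh7-R-A7 vs. Huh7-S, 1460 to 2016 and 1897 to 2592 for Huh7-R vs. Huh7-S, and 183 to 606 and 205 to 724 for Huh7-R-A7 vs. Huh7-R, the most (606 and 724) without Huh7-S replicate 1. The member differences ranged in the clone vs. Huh7-S over 6.09 to 6.38 for CYP1B1, 2.71 to 3.16 for CYP2B6, 2.69 to 2.86 for CYP2S1, 1.03 to 1.55 for CYP3A5 and -1.56 to -0.98 for CYP39A1. In the pool vs. Huh7-S they ranged over 5.30 to 5.53, 1.25 to 1.33, 2.87 to 3.02, 0.58 to 1.10 and -1.62 to -1.04, and in the clone vs. the pool over 0.64 to 0.94, 1.43 to 1.88, -0.27 to -0.07, 0.29 to 0.66 and -0.07 to 0.17.

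With the replicate number as a block, 1832 genes rose and 2532 fell in Huh7-R-A7 vs. Huh7-S, 1899 and 2670 in Huh7-R vs. Huh7-S, and 500 and 511 between the clone and the pool. Since every group holds every replicate number, the block cannot move a difference of group means. It can only change the spread, so the unchanged member differences say nothing of their stability. Of the list genes that passed, 56 of 61, 56 of 62 and 11 of 14 kept call and direction under the block in these comparisons. Under no alternative did a list gene that had passed change sign. The cause of lost calls was not tested. The precision is limited by having 3 arrays a group, and signals near log2 6 bound only the fold.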

Other observations

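Genes that serve P450 enzymes moved in both directions. Over all genes 18.0% rose and 24.6% fell in Huh7-R-A7, and 19.0% rose and 26.2% fell in Huh7-R (medians -0.04 and -0.03). The list counts are set beside these shares and were not tested. Of 24 genes of electron transfer and heme metabolism, 18 were measured, and 4 rose and 2 fell in Huh7-R-A7 (median 0.02), while 4 rose and 4 fell in Huh7-R (median -0.06). The 4 that rose became 2 in either comparison when any resistant array or Huh7-S replicate 3 was left out, and 7 after array median centring. The 2 that fell in Huh7-R-A7 became 1 without Huh7-R-A7 replicate 1 or Huh7-S replicate 2 and 4 without Huh7-S replicate 3. POR, the P450 reductase, was not analysed here. CYB5A, cytochrome b5, rose by 1.01 (SE 0.24, limma adjusted p = 0.011) in the clone and by 1.17 (SE 0.24, limma adjusted p = 0.0053) in the pool. CYB5R4, a cytochrome b5 reductase, rose by 1.33 (SE 0.10, limma adjusted p = 4.1e-05) and 1.30 (SE 0.10, limma adjusted p = 4.9e-05), in the clone and the pool. ALAS1, the rate-limiting enzyme of heme synthesis, did not pass, with 0.10 (limma adjusted p = 0.36) in the clone and -0.13 (limma adjusted p = 0.23) in the pool. HMOX1, which degrades heme, fell by 1.03 (limma adjusted p = 3.5e-05) in the clone and by 0.69 (limma adjusted p = 0.00025) in the pool, to levels below the noise limit. FDX1, ferredoxin of mitochondrial P450s, had 0.36 in the clone (limma adjusted p = 0.049), which was lost in most alternatives.

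Other oxidising and reducing enzymes of drug metabolism moved in both directions. So did the genes as a whole, of which 18.0% rose and 24.6% fell in Huh7-R-A7 and 19.0% and 26.2% in Huh7-R. Of 41 listed, 23 were measured, and 5 rose and 8 fell in Huh7-R-A7 vs. Huh7-S (median -0.16), while 6 rose and 5 fell in Huh7-R vs. Huh7-S (median 0.17). The genes that rose became 2 without replicate 2 or 3 of the resistant group compared and 3 without Huh7-S replicate 3. AOX1, aldehyde oxidase, read 8.15, 8.39 and 8.36 in Huh7-R-A7, 7.18, 7.19 and 7.18 in Huh7-R, and 5.78, 5.31 and 5.34 in Huh7-S. It rose by 2.82 (SE 0.13, at least 4.92-fold, limma adjusted p = 4.1e-06) in the clone and by 1.70 (SE 0.13, at least 2.27-fold, limma adjusted p = 4.1e-05) in the pool, and it was 1.12 higher in the clone than in the pool (limma adjusted p = 0.0022). The order of the groups was that of CYP2B6.

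AKR1C3, which reduces steroids and prostaglandins, rose by 2.24 (SE 0.30, limma adjusted p = 0.00072) in the clone and by 1.45 (SE 0.30, limma adjusted p = 0.0058) in the pool. AKR1C2, its close relative, had differences of 2.79 and 2.57, which were lost without Huh7-S replicate 2 or 3, any Huh7-R array in the pool comparison, or Huh7-R-A7 replicate 2 or 3 in that of the clone (limma adjusted p = 0.054 to 0.082), and signal shared between the near-identical AKR1C genes was not tested. ADH6, an alcohol dehydrogenase, fell by 2.63 (limma adjusted p = 9e-05) in the clone and by 2.58 (limma adjusted p = 0.00011) in the pool. EPHX2, the soluble epoxide hydrolase that acts on the epoxides CYP2J2 makes, fell by 1.61 (limma adjusted p = 2e-05) and 1.98 (limma adjusted p = 7.5e-06), and both it and ADH6 were below the noise limit in the resistant groups.

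Of 16 genes of estrogen handling, the substrate class of CYP1B1, 7 were measured, and 2 rose and 1 fell in each comparison with Huh7-S. Among all genes 18.0% rose and 24.6% fell in the clone, and 19.0% rose and 26.2% fell in the pool. UGT2B15, which glucuronidates steroids, rose by 2.69 (SE 0.44, limma adjusted p = 0.0019) in the clone, and its pool difference of 1.55 (limma adjusted p = 0.024) was lost without Huh7-R replicate 2 or 3 or Huh7-S replicate 2 or 3 (limma adjusted p = 0.061 to 0.082). GPER1, a membrane estrogen receptor, fell by 1.27 (limma adjusted p = 0.003) and 1.00 (limma adjusted p = 0.0088), in the clone and the pool. Of 18 genes of retinoid handling, 9 were measured, and 3 rose and 1 fell in the clone, while 2 rose and 2 fell in the pool. In both lists some of these counts shifted by 1 when an array was left out. RARB, a retinoic acid receptor, was the 1 retinoid gene that fell in the clone, by 0.82 (limma adjusted p = 0.0081), while 3 rose there. In the pool RARB fell by 1.23 (limma adjusted p = 0.0011), while 2 retinoid genes rose.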
